A study of Homo sapiens with 4 samples.

Results

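Transcripts of 9 chemokine genes were examined in SKOV3, an ovarian carcinoma cell line of human origin: the CXC chemokines CXCL1, CXCL2, CXCL3, CXCL5, CXCL6, CXCL8 and CXCL16, and the CC chemokines CCL2 and CCL20. The genes were chosen by name, with earlier results of these data known. Every probe set annotated to one of them alone was taken, which gave 14 of the 54613 probe sets that were not array controls. In terms of genes these were 9 of 19775. The tested arrays came from 2 samples of SKOV3 cells treated with rhSTIP1, and the comparison arrays from 2 samples of SKOV3 cells without it. Here rhSTIP1 is taken to mean recombinant human STIP1, a cochaperone of HSP70 and HSP90 that cells also secrete. Neither a dose nor a treatment time is given in the sources used here. A single cell line was used. Whether arrays of the same group represent separate cultures is not stated, so p-values reflect only array-to-array spread, which may be technical.

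Chemokines are small secreted proteins that bind receptors on leukocytes and steer their migration. CXCL1, CXCL2, CXCL3, CXCL5, CXCL6 and CXCL8 carry the amino acid motif glutamate-leucine-arginine (ELR), attract neutrophils and promote vessel growth. They act through CXCR2, and some of them through CXCR1 as well. CXCL16, which lacks that motif, is made as a membrane protein that ADAM10 and ADAM17 release and that binds CXCR6. CCL2 attracts monocytes through CCR2, and CCL20 attracts CCR6-bearing lymphocytes and dendritic cells. Transcription of most of these genes is induced by NF-kappaB downstream of interleukin-1 and TNF, and carcinoma cells often secrete several of them.

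In the gene table of the GRCh38.p14 assembly, the 6 ELR genes among the 9 lie on chromosome 4, CXCL16 and CCL2 on chromosome 17 and CCL20 on chromosome 2. From CXCL8 to CXCL2 the order of protein-coding genes was CXCL8, CXCL6, PF4V1, CXCL1, PF4, PPBP, CXCL5, CXCL3 and CXCL2, 9 genes of which 6 are members. RefSeq promoter sequences were matched for 7 of the 9 genes, all but CXCL16 and CCL2. The 150 bases before the annotated start of the 5 brightly measured genes among them are shown, because CXCL1, CXCL2 and CXCL3 had similar array profiles and share most of this sequence. Each is written 5′ to 3′ on the gene's own strand (RefSeq, GRCh38.p14). Capitals mark GGGAATTTCCC, the longest string that the promoters of CXCL1, CXCL2, CXCL3, CXCL5 and CXCL6 have in common. In CXCL8 they mark the core of that string, GGAATTTCC, the longest string common to these 5 promoters and that of CXCL8. Both have the form of a kappaB site, the DNA element that NF-kappaB binds.
CXCL1 (chr4:73869243-73869392, plus strand): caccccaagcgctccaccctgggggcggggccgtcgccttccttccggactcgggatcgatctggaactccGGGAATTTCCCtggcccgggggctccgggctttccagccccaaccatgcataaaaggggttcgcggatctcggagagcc
CXCL2 (chr4:74099196-74099345, minus strand): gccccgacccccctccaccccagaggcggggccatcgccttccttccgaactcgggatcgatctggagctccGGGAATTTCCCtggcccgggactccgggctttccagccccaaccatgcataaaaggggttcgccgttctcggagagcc
CXCL3 (chr4:74038690-74038839, minus strand): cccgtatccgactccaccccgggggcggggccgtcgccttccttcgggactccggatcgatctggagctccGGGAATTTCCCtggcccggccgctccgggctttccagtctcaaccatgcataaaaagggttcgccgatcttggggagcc
CXCL8 (chr4:73740419-73740568, plus strand): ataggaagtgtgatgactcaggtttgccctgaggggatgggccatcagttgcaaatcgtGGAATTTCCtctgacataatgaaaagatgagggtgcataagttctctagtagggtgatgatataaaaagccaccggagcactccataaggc
CCL20 (chr2:227813692-227813841, plus strand): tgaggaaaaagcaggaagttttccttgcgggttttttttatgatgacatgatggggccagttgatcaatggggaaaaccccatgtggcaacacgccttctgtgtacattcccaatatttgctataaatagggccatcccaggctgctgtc
In a gapped alignment of these 150 bases, CXCL1 was 88.7% identical to CXCL2 and 88.1% identical to CXCL3, against 41.7% for CXCL1 and CXCL8 and 44.2% for CXCL1 and CCL20. GGGAATTTCCC began 79 bases before the start in CXCL1 (position −79), at −78 in CXCL2 and at −79 in CXCL3. CXCL5 and CXCL6, whose 150 bases were 89.4% identical to each other, held it at −91 and −90. In CXCL8 the core GGAATTTCC began at −91, and TGANTCA, the motif of the AP-1 factors, at −137. Searched on both strands of the 250 bases before each start, GGGAATTTCCC was present in 5 of the 7 members and in 0.0769% of all 35116 promoters in the table. The core GGAATTTCC, which lies inside it, was present in 6 of the 7 and in 0.413% of all, and TGANTCA in 1 of the 7 and in 6.57% of all. CCL20 held none of these strings in this window. Only these exact strings were searched, so this does not show that its promoter lacks a kappaB site. GGGAATTTCCC and GGAATTTCC were chosen as strings that 5 and 6 members share, so their presence in those members is no test. A match is a description of these letters and does not show that a factor binds there.

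The arrays resembled each other broadly, with median signals between 66.0 and 79.2. Pairwise Pearson correlations lay between 0.952 and 0.979 across 12296 genes, which are no independent replicates. Within groups the correlation was 0.967 for rhSTIP1 and 0.964 for control. Between groups it was 0.979 for the arrays numbered 2 and 0.967 for those numbered 1. The other pairs between groups had 0.969 (rhSTIP1 array 1, control array 2) and 0.952 (rhSTIP1 array 2, control array 1). Arrays of a group were thus not the most alike. For ACTB, the ratio of 3′ to 5′ signal, a measure of RNA degradation, was 2.62 and 8.79 on rhSTIP1 arrays 1 and 2 and 2.74 and 2.45 on control arrays 1 and 2, so rhSTIP1 array 2 stood apart. Its ratio for GAPDH, 1.32, was also the highest of the 4, which lay between 0.987 and 1.32. All 12 markers of epithelial and ovarian carcinoma cells reached the mean signal of 69.4 needed for testing, PAX8 with 6779 and 8190.0 on the rhSTIP1 arrays and 7170 and 7425 on the control arrays. Of the markers of other cell types on the array, 1 of 8 for leukocytes, 5 of 10 for fibroblasts and 1 of 8 for endothelium reached it. PTPRC, which defines leukocytes, had 43.7 and 28.8 on the rhSTIP1 arrays and 19.6 and 19.4 on the control arrays. The summed signal of the leukocyte list was 229 and 354 on the rhSTIP1 arrays and 279 and 274 on the control arrays. As defined below, 0 of the 7 tested markers of other cell types were separated, against 3.79% of all tested genes lower and 1.9% higher. In RNA from a whole culture, fewer expressing cells and less RNA per cell cannot be told apart.

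Of the 9 genes, 6 reached the mean signal of 69.4 and were tested (CXCL1, CXCL2, CXCL3, CXCL8, CXCL16 and CCL20). In short, CXCL1, CXCL2 and CXCL3 were below both control arrays on both treated arrays, by 3.10-, 3.63- and 3.18-fold. For CXCL8 the 2 probe sets gave different pictures, for CCL20 the groups overlapped, and CXCL16 was slightly higher. CXCL5, CXCL6 and CCL2 stayed below the testing level on every array. All fold changes compare rhSTIP1 with control on the log2(signal + 16) scale, which understates the change of dim genes, and the ± values of log2 fold changes are standard errors from limma with 2 arrays per group. A gene is called separated where both rhSTIP1 arrays lay on the same side of both control arrays and the groups differed by at least 1.5-fold. Separated lower were 3 of the 6 tested members, against 3.79% of all 12296 tested genes, and 0 members were separated higher, against 1.9%. The median log2 fold change of the 6 was −1.28, against 0.02 over all tested genes. Because the members were chosen with earlier results of these data known, these comparisons are a description and no test. Limma's test with Benjamini-Hochberg adjustment over all genes called 0 members and 0% of all genes at an adjusted p of 0.05. At an unadjusted p under 0.05 it found 452 genes (2.64% lower and 1.04% higher), and 3 members, all lower. For a single gene, the smallest two-sided p that an exact permutation test of 2 against 2 arrays allows is 0.333.

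**Figure D1:**
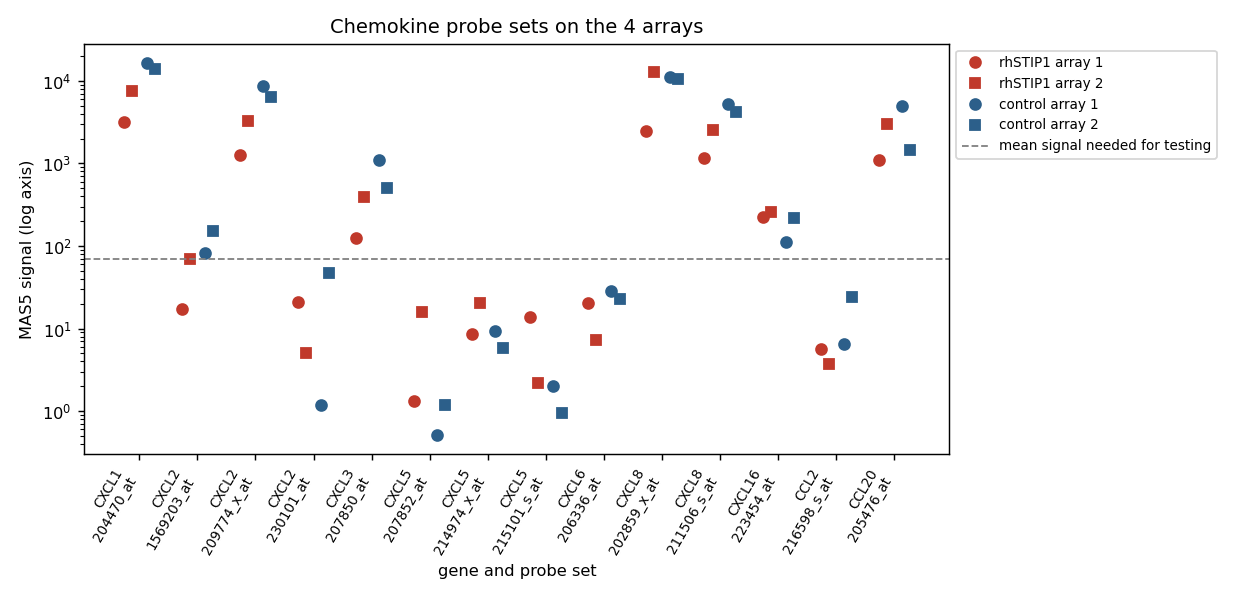
MAS5 signal on a log axis for each of the 14 chemokine probe sets, with rhSTIP1 arrays in red, control arrays in blue, circles for array 1 and squares for array 2; the dashed line is the mean signal of 69.4 needed for testing. Among tested probe sets both red points lie below both blue points for CXCL1, for CXCL3, for CXCL2 at 209774_x_at and 1569203_at and for CXCL8 at 211506_s_at, and all points of CXCL5, CXCL6 and CCL2 lie under the line.

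CXCL1, a neutrophil attractant first known for stimulating melanoma growth, had signals of 3137 and 7572 on rhSTIP1 arrays 1 and 2, against 16605 and 13826 on control arrays 1 and 2. The groups did not overlap, and array 1 of the treated cells was the lower of its pair. Relative to the mean of the controls the rhSTIP1 arrays stood at 20.6% and 49.8%. The means were 5355 ± 3135 in rhSTIP1 cells and 15215.5 ± 1965 in control cells (SD, n = 2 each), and the log2 fold change was −1.63 ± 0.38 (limma, adjusted p = 0.702 over all genes, unadjusted p = 0.00288).

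CXCL2, a close paralogue with the same receptor, was measured by 3 probe sets. The brightest, 209774_x_at, gave 1256 and 3270.4 on rhSTIP1 arrays 1 and 2, against 8648 and 6324 on control arrays 1 and 2. These are 16.8% and 43.7% of the control mean, and the groups again did not overlap. The log2 fold change was −1.86 ± 0.42 (limma, adjusted p = 0.702, unadjusted p = 0.00266). The suffix _x_at marks probe sets whose probes can also match other transcripts, so that a part of this signal could come from CXCL1 or CXCL3, which was not tested. The dimmer 1569203_at had 17.5 and 70.4 on the rhSTIP1 arrays and 82.5 and 154 on the control arrays, with a log2 fold change of −1.27 ± 0.56. Its mean reached the testing level through the control arrays, while the mean of 43.9 on the rhSTIP1 arrays lay under it, so it adds no independent support. The remaining probe set, 230101_at, lay between 1.20 and 47.4 on all arrays and was not tested.

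CXCL3, the least bright of these genes on its own probe set, had 125 and 387 on rhSTIP1 arrays 1 and 2, against 1108 and 497 on control arrays 1 and 2. The groups did not overlap, but the gap between rhSTIP1 array 2 and control array 2 was small beside the difference between the controls. The rhSTIP1 arrays stood at 15.6% and 48.2% of the control mean. The log2 fold change was −1.67 ± 0.54 (limma, adjusted p = 0.999, unadjusted p = 0.0163).

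CXCL8, also called interleukin-8, had probe sets that differed on rhSTIP1 array 2. At 202859_x_at, the brighter of them, signals were 2486 and 12774 on rhSTIP1 arrays 1 and 2, against 11097 and 10513 on control arrays 1 and 2. Array 1 of the treated cells lay at 23.0% of the control mean and array 2 at 118%, so the groups overlapped. Its log2 fold change was −0.94 ± 0.63 (limma, adjusted p = 0.999). At 211506_s_at signals were 1170.45 and 2553 on the rhSTIP1 arrays, against 5269 and 4138 on the control arrays. Here both treated arrays were lower, at 24.9% and 54.3% of the control mean. Tested among all 27307 probe sets past the same level, 211506_s_at had a log2 fold change of −1.42 ± 0.37 (limma, adjusted p = 0.9998, unadjusted p = 0.0051). In that fit the separated chemokine probe sets, all lower, were those of CXCL1, CXCL3, CXCL2 at 209774_x_at, CXCL8 at 211506_s_at and CXCL2 at 1569203_at, the last of which reached the testing level through the control arrays. Of all probe sets tested 4.35% were separated lower. The ACTB ratio of 8.79 belongs to the array on which the CXCL8 probe sets disagree, and its part in the disagreement was not tested. Because 202859_x_at carries the suffix _x_at, a part of its signal could also come from other transcripts, which was not tested either.

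CCL20 had signals of 1107 and 2975 on rhSTIP1 arrays 1 and 2, against 4942 and 1451 on control arrays 1 and 2. The arrays of the groups interleaved, and control array 2 lay below control array 1 by −1.76 on the log2 scale, more than the difference between the groups. The log2 fold change was −0.56 ± 0.62 (limma, adjusted p = 0.999).

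CXCL16 was the only tested member with a positive log2 fold change, 0.57 ± 0.37 (limma, adjusted p = 0.999). Its signals were 227 and 255 on rhSTIP1 arrays 1 and 2, against 111 and 220.5 on control arrays 1 and 2. Both treated arrays were above both controls, but rhSTIP1 array 1 exceeded control array 2 only narrowly and the groups differed by 1.48-fold. Relative to the other arrays, control array 1 was the low one.

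The other 3 genes were dim throughout. CXCL6 had 20.3 and 7.19 on the rhSTIP1 arrays and 28.7 and 23.1 on the control arrays. CCL2 had 5.72 and 3.67 on the rhSTIP1 arrays and 6.50 and 23.8 on the control arrays. The 3 probe sets of CXCL5 lay between 1.33 and 20.2 on the rhSTIP1 arrays and between 0.512 and 9.25 on the control arrays. The files used here hold no detection calls, so such signals could not be told from background, and no fold is given for these genes.

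**Figure D2:**
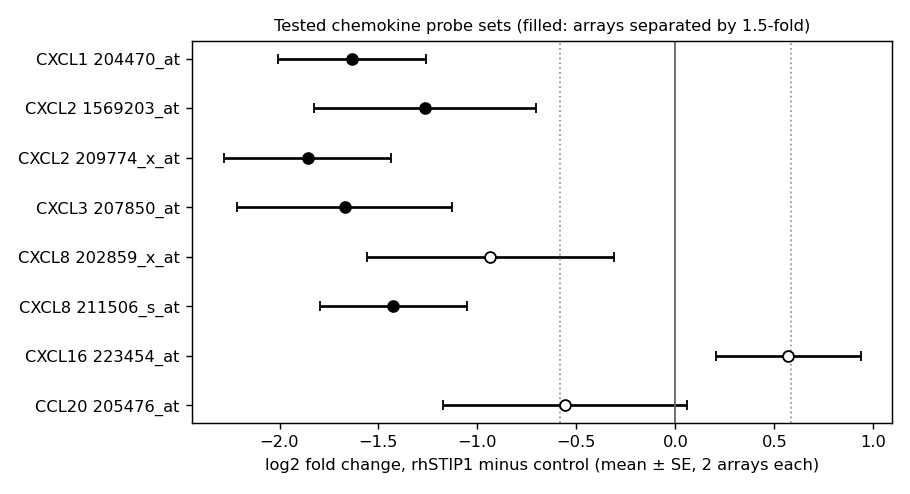
Log2 fold change, rhSTIP1 minus control, of the 8 tested chemokine probe sets, as the estimate with its standard error from limma (2 arrays per group); dotted lines mark a 1.5-fold change and filled points have separated arrays. The 5 filled points lie between −1.86 and −1.27, while CXCL8 at 202859_x_at and CCL20 are open points below 0 and CXCL16 is an open point above 0.

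The treated arrays differed from each other in the same direction for every tested member. On rhSTIP1 array 2 the signal was above that of rhSTIP1 array 1 by 2.41-fold for CXCL1, 2.60-fold for CXCL2, 3.09-fold for CXCL3, 5.14-fold for CXCL8 and 2.69-fold for CCL20, and by 1.13-fold for CXCL16. The median absolute log2 difference between these arrays over all tested genes was 0.30. Each fold change therefore depended on which treated array was used. All CXCL8 values given here belong to its brighter probe set. At the other CXCL8 probe set both treated arrays lay below both controls, so leaving out an array could not change its sign. Without rhSTIP1 array 1 the log2 fold changes were −0.999 for CXCL1, −1.17 for CXCL2, −0.92 for CXCL3, 0.24 for CXCL8, 0.15 for CCL20 and 0.65 for CXCL16. Without rhSTIP1 array 2, the array with the high ACTB ratio, they were −2.27, −2.54, −2.43, −2.11, −1.26 and 0.49 in the same order of genes. Among the controls, leaving out array 1 gave −1.10 for CXCL3, 0.32 for CCL20 and 0.12 for CXCL16, and leaving out array 2 gave −2.24, −1.44 and 1.02 for these genes. CXCL1, CXCL2 and CXCL3 were separated lower with each array left out in turn. CCL20 was also separated lower without rhSTIP1 array 2 and without control array 2, and CXCL8 without rhSTIP1 array 2. CXCL16 was separated higher without rhSTIP1 array 1 and without control array 2. With fewer arrays more genes are separated by construction, and of all tested genes 7.71% were separated lower when rhSTIP1 array 2 was left out and 8.41% when control array 2 was. Separated higher were 5.9% when rhSTIP1 array 1 was left out and 7.69% when control array 2 was.

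**Figure D3:**
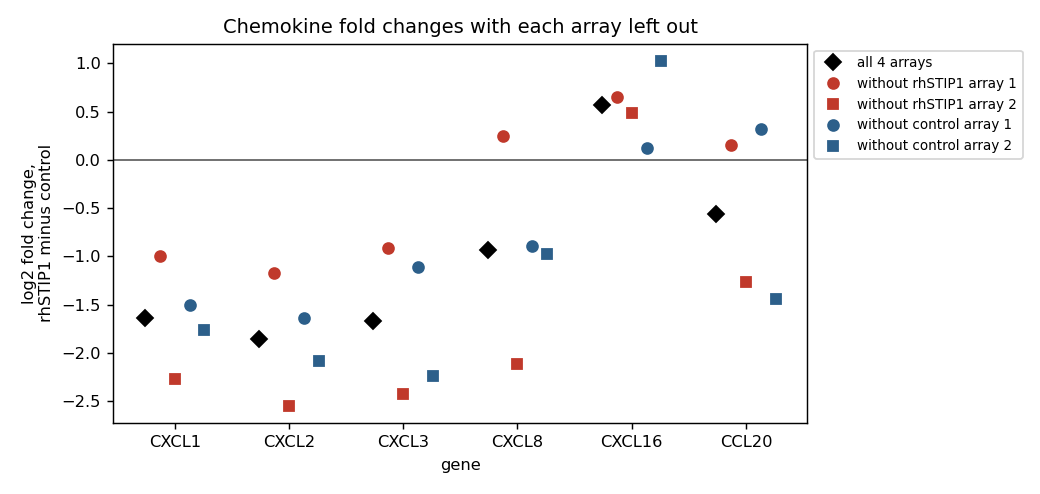
Log2 fold change, rhSTIP1 minus control, of the 6 tested chemokine genes with all 4 arrays (black diamonds) and with each array left out (red: an rhSTIP1 array left out; blue: a control array left out; circles for array 1, squares for array 2). CXCL1, CXCL2 and CXCL3 lie between −2.54 and −0.92. Their groups did not overlap with all 4 arrays, so they could not change sign. CXCL8, at its brighter probe set, runs from −2.11 to 0.24 and CCL20 from −1.44 to 0.32.

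The receptors of these chemokines were dim in SKOV3 cells. CXCR2, which binds all ELR chemokines, had 27.3 and 13.997 on the rhSTIP1 arrays and 17.0 and 9.40 on the control arrays. CXCR1 lay between 9.05 and 26.3, CXCR6 between 17.7 and 51.5, CCR2 between 18.0 and 42.4 and CCR6 between 7.66 and 19.3 over all 4 arrays, all under the testing level. Of 20 chemokine receptors on the array 3 were tested, with a median log2 fold change of 0.26. Of these, 0 were separated lower and 1 receptor higher, against 3.79% and 1.9% of all tested genes. That receptor was ACKR3, a scavenger of CXCL11 and CXCL12. Its signals were 242 and 159 on the rhSTIP1 arrays and 34.1 and 47.3 on the control arrays, with a log2 fold change of 1.92 ± 0.39 (limma, adjusted p = 0.702). Its mean reached the testing level only through the treated arrays. CXCR4 had a log2 fold change of 0.26 ± 0.42 and CCR4 one of −0.21 ± 0.43. Of 30 chemokines outside the members on the array 2 were tested and 0 separated, CXCL10 with a log2 fold change of −0.76 ± 0.67 and CCL28 with 0.06 ± 0.32.

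The genes between the chromosome 4 members were dim as well. PF4V1, PF4 and PPBP, platelet chemokines that sit among them, did not reach the testing level, with PF4V1 the brightest at 59.0 and 70.8 on the rhSTIP1 arrays and 46.8 and 20.4 on the control arrays. Of the 5 protein-coding genes on each side of the cluster, a set chosen after the members' values were seen, 5 in all were tested. Separated lower was 1 of them, against 3.79% of all tested genes. EREG, which encodes the EGF receptor ligand epiregulin, was the 1 that was separated, with 460.3 and 706 on the rhSTIP1 arrays and 858 and 1152 on the control arrays and a log2 fold change of −0.78 ± 0.30 (limma, adjusted p = 0.999). RASSF6 (−0.31 ± 0.26), ANKRD17 (−0.06 ± 0.25), MTHFD2L (0.08 ± 0.26) and BTC (0.40 ± 0.31) were not separated.

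Transcripts of the NF-kappaB subunits, the proteins that bind kappaB sites, were measured beside their target genes. RELA had 2935 and 3159 on the rhSTIP1 arrays and 3037 and 3536 on the control arrays, a log2 fold change of −0.11 ± 0.22. NFKB1 had −0.15 ± 0.24. NFKBIA, the inhibitor that NF-kappaB itself induces, had 8289.8 and 4839.7 on the rhSTIP1 arrays and 6942 and 4734 on the control arrays, a log2 fold change of 0.14 ± 0.31 with overlapping groups. Of 14 subunits, kinases and inhibitors tested, 2 were separated lower and 0 higher, against 3.79% and 1.9% of all tested genes. The median log2 fold change of the 14 was −0.11. The separated genes were NFKBIZ and NFKBIE. NFKBIZ encodes a nuclear inhibitor-like protein that takes part in the induction of a subset of NF-kappaB targets, and its signals were 678 and 1888 on rhSTIP1 arrays 1 and 2, against 2767 and 2448 on control arrays 1 and 2. Both treated arrays were lower and array 1 was the lower of them, as for CXCL1, and the log2 fold change was −1.19 ± 0.44 (limma, adjusted p = 0.999). NFKBIE, a cytoplasmic inhibitor, had 374 and 522 on the rhSTIP1 arrays, against 1158 and 603 on the control arrays, −0.90 ± 0.35. IKBKG had 0.37 ± 0.25. TNFAIP3, a feedback inhibitor that NF-kappaB induces, had 447 and 1489.7 on the rhSTIP1 arrays, against 1400.1 and 1266 on the control arrays, so that only array 1 was low.

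Cytokines and receptors that induce chemokines, or are induced beside them, were compared in the same way. Of 12 tested, 0 were separated lower and 1, LIF, was separated higher, against 3.79% and 1.9% of all tested genes. The median log2 fold change of the 12 was −0.30. TNF had 46.0 and 346 on rhSTIP1 arrays 1 and 2, against 798 and 291 on control arrays 1 and 2, −1.74 ± 0.79 with overlapping groups. IL1A and IL6 were chosen after their values were seen. IL1A had 654 and 4980.3 on the rhSTIP1 arrays, against 3829 and 3566 on the control arrays, and IL6 had 335 and 2087 on the rhSTIP1 arrays, against 1704 and 1231 on the control arrays. Like CXCL8 at 202859_x_at, both were below the controls on rhSTIP1 array 1 and above them on rhSTIP1 array 2. LIF, a cytokine of the IL-6 family, had 1269 and 3086 on the rhSTIP1 arrays, against 952 and 786 on the control arrays, 1.18 ± 0.40 (limma, adjusted p = 0.999). LTB had −0.54 ± 0.37 and the adhesion molecule ICAM1 −0.81 ± 0.59.

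**Figure D4:**
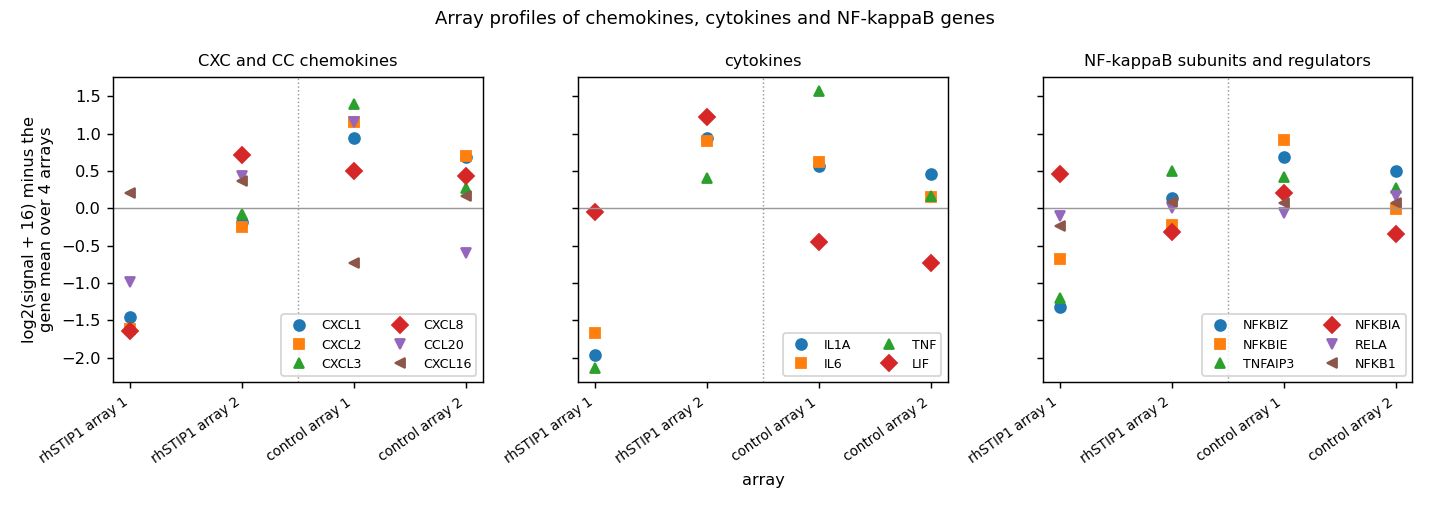
Log2(signal + 16) of each gene minus its mean over the 4 arrays, for tested chemokines (left), cytokines (middle) and NF-kappaB subunits and regulators (right), with the rhSTIP1 arrays left of the dotted line and the control arrays right of it. On rhSTIP1 array 1 CXCL1, CXCL2, CXCL3, CXCL8, IL1A, IL6, TNF, NFKBIZ and TNFAIP3 lie between −2.14 and −1.20, while RELA and NFKB1 lie between −0.23 and 0.16 on every array.

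Factors that act on chemokine transcripts or proteins after transcription were also compared. Of 8 tested, 0 were separated, against 3.79% of all tested genes lower and 1.9% higher. ZFP36L2, an RNA-binding protein that promotes decay of AU-rich transcripts, had 3296 and 3492 on the rhSTIP1 arrays and 2339.7 and 2338 on the control arrays, higher on both treated arrays by 0.53 ± 0.21 on the log2 scale, under the 1.5-fold limit (limma, adjusted p = 0.999). The related ZFP36L1 had −0.32 ± 0.21. ADAM10 and ADAM17, the proteases that release CXCL16, had log2 fold changes of 0.35 ± 0.24 and 0.35 ± 0.25. STIP1 itself had −0.17 ± 0.34.

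The genes whose array profile was most like that of CXCL1 were ranked by the root mean square difference of log2(signal + 16), centred on each gene's mean, over the 4 arrays. Among the members CXCL2 differed by 0.14, CXCL3 by 0.32, CXCL8 by 0.52, CCL20 by 0.76 and CXCL16 by 1.24. The CXCL8 value belongs to its brighter probe set, on which the groups overlapped. At the other CXCL8 probe set both treated arrays lay below both controls, and its likeness to CXCL1 was not computed. The place of CXCL8 in this order therefore holds for the brighter probe set only. The 5 closest genes outside the members were RRM2 (0.15), WDR76 (0.17), NFKBIZ (0.23), RAD54L (0.25) and NUDT1 (0.25). WDR76, with 28.3 and 77.6 on the rhSTIP1 arrays against 180.3 and 124 on the control arrays, and NUDT1, with 25.3 and 46.4 against 157 and 112, reached the testing level through the control arrays. With only 4 arrays many genes can resemble each other by this measure.

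The shared promoter strings were then used to group genes without regard to their values, a grouping added after the members' values were known. Outside the members 131 genes held the core GGAATTTCC in their 250 upstream bases, and 54 of these were tested. Of the 54, 2 were separated lower, NFKBIZ and the ERK phosphatase DUSP6 (log2 fold change −1.46 ± 0.53), and 0 were separated higher. This is 3.7% lower, against 3.82% of the 10023 tested genes with a promoter in the table. DUSP6 had 498 and 650 on the rhSTIP1 arrays, against 2999.5 and 847 on control arrays 1 and 2, so control array 1 stood apart. The median log2 fold change of the 54 was −0.07, against 0.02 for those 10023 genes. NFKBIA, NFKB1, NFKBIB and REL are among the 54 and were not separated. For the longer GGGAATTTCCC 13 genes outside the members were tested and 0 were separated. Log2 fold changes were below 0 for 33 of the 54 and for 8 of the 13, against 4710 of the 10023.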

How the data were processed

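Expression was measured on 4 Affymetrix arrays, 2 of rhSTIP1-treated and 2 of control SKOV3 cells, from TRIZOL-extracted, biotin-labelled RNA, per the labels' protocols. The authors deposited intensities on a linear scale, 1 per probe set. The submitters' processing notes name MAS5 and Affymetrix Expression Console 1.1. The mean after trimming 2% from each end was 500.1 on every array. Probe sets were named from the platform annotation, and the gene identifiers of 41037 of the 41091 with 1 symbol matched the gene table. A gene was represented by its brightest probe set and tested where its mean signal reached 69.4, the median over the 54613 probe sets (12296 of 19775 genes). Limma 3.58.1 in R 4.3.3 (lmFit, eBayes with trend) was applied to log2(signal + 16). Tests were two-sided and adjusted by Benjamini-Hochberg. The steps were tested on simulated data. Shared promoter strings were searched with Python 3.11.15. Named genes were all members and the receptors and NF-kappaB genes given. From each list other than the cell type markers, up to 4 genes with the smallest p were named. Outside these rules PAX8, PTPRC, STIP1, IL1A and IL6 were named, and genes picked by chromosome position, promoter string or likeness to CXCL1. Members and lists were chosen with earlier results of these data known. Alternatives covered pseudocount, filter, scaling, probe set choice, block, eBayes and each array left out. The number of arrays limits the precision.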

Additional observations from a re-analysis of the deposited data

How the results depend on the processing

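CXCL1, CXCL2 and CXCL3 kept negative log2 fold changes under every alternative run. They were separated lower in each alternative that gave a count by gene. The block, eBayes and filter settings do not change a gene's signals or its group difference, so their outcome was fixed. Leaving out 1 array or changing the pseudocount could not make these groups overlap or change sign, so only the 1.5-fold limit could have failed. CXCL1 and CXCL3 have 1 probe set each, so the probe set choice could alter only CXCL2 among these genes. The count of separated chemokine genes, 3, was 3 or 4 under the other settings and 3 to 5 with 1 array left out (5 without control array 2 and 5 without rhSTIP1 array 2). With all 4 arrays the added genes were CXCL16, higher with a pseudocount of 1, median centring and quantile normalization, and CXCL8, lower with the mean of its probe sets or at its other probe set. CXCL2 had −1.12 with the mean of its probe sets and −1.27 at 1569203_at, with an unadjusted p of 0.0563 by limma. CXCL8, at its brighter probe set, reversed to 0.24 without rhSTIP1 array 1 (range −2.11 to 0.24). At the other CXCL8 probe set both treated arrays lay below both controls, so leaving out 1 array could not change its sign. CCL20 reversed to 0.32 without control array 1 and 0.15 without rhSTIP1 array 1 (range −1.44 to 0.32). The cause of these reversals was not tested. Over all genes limma called 0, against 1 with a filter at the 70th percentile, 2 with robust eBayes and 0 to 6 with 1 array left out (3 without control array 1, 6 without control array 2). A lone array is then assumed to vary like the other group's arrays. The replicate number as a block gave 247 genes, among them CXCL1 (adjusted p = 0.000281), CXCL2 (adjusted p = 0.000345) and CXCL3 (adjusted p = 0.0204) by limma. Differences between array 1 and array 2 correlated between the groups at 0.36 over genes, but the labels do not say that a number marks a shared culture or day, and 2 numbers are too few to show pairing. Dim signals, without detection calls, limit CXCL5, CXCL6 and CCL2.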
